A study of Homo sapiens with 8 samples.

Results

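Global-genome nucleotide excision repair begins with 7 genes that were followed here through nascent transcription: *XPC*, *RAD23B*, *CETN2*, *DDB1*, *DDB2*, *CUL4A* and *CUL4B*. They were chosen by name from 19351 gene names, 1 row per gene, taking the transcript with the largest distance from start to end where a gene had several (15 member transcripts in all). All 7 passed the filter on low counts that kept 17840 genes. The cells were SV40-immortalized fibroblasts from human fetal lung, named MRC5 in the labels and MRC5_VA by the study, either WT or with a lentiviral shRNA knockdown of the long noncoding RNA *ZFAS1* (KD). Every group was held in 100 µM DRB for 3.5 h, left without UV or given 10 J/m2 of UV-C, and sampled 10 or 40 min after DRB was removed, so that there were 8 groups of 1 GRO-seq library each. GRO-seq lets engaged polymerases extend their RNA in isolated nuclei, here for 5 min, and counts the labelled RNA. SV40 large T antigen binds p53, which limits these cells as a model of p53-dependent transcription.

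Lesion sensing works in layers. XPC, held by RAD23B and CETN2 (centrin 2), scans for distorted DNA and opens the repair reaction at helix-distorting lesions. DDB2, bound to DDB1, recognises cyclobutane pyrimidine dimers that XPC alone senses poorly, and DDB1 ties it to the cullin scaffolds CUL4A or CUL4B, a ubiquitin ligase that modifies XPC, DDB2 and histones. *DDB2* and *XPC* are known p53 targets in human cells. DRB blocks the kinase that releases RNA polymerase II from the start of genes, so reads gathered after its removal come from a wave of polymerases moving into each gene.

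The 8 libraries held 10.2 to 21.1 M reads over genes, the deepest being WT without UV at 40 min. Fibroblast markers lay at a median 16.3 to 29.0 times the low-density level of the same library, which is the 10th percentile of reads per kb over 5746 genes of at least 50 kb. The medians of epithelial, immune and muscle markers lay at 0.637 to 3.13 times it, and those of endothelial markers higher, at 2.86 to 6.23 times, with *ERG* at a mean of 606 CPM and *VWF* at 164 CPM. *NKG7* had no reads in any library, and *LYZ*, *MYF5* and *MYOG* had none in at least 1. *ZFAS1*, the targeted gene, did not read lower in nascent RNA under the KD label (log2 KD over WT 0.21 ± 0.35 SE). The study measured its knockdown by qRT-PCR of extracted RNA. It also reported less *ZFAS1* by RT-PCR in nuclear and cytoplasmic fractions of KD cells, and showed RNA-seq tracks of the locus. These are unlike measures, so nascent reads do not test that knockdown. KD below names the label. Whether labels were exchanged between libraries was not tested, and an exchange would change what every KD value below means. With 1 library per group, spread was estimated from what additive terms for UV, KD and time leave over the 8 libraries, and intervals on single pairs of libraries cover counting error only. Levels are CPM (reads relative to library depth, scaled by TMM), and fewer cells of a type cannot be told apart from less RNA per cell in such bulk values.

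*XPC* and *DDB2* had the largest differences over time and *RAD23B* the highest mean CPM per kb of span. For these 3 members, windows around 1 annotated start each are shown. They run from 250 bases before to 50 bases after a RefSeq start (GRCh38.p14), read 5′ to 3′ on the gene's strand. For *XPC* (chr3:14178552-14178851, minus strand) and *RAD23B* (chr9:107283029-107283328, plus strand) capitals mark GGGCGG on either strand, the core of the GC box bound by SP1. For *DDB2* (chr11:47214724-47215023, plus strand) capitals mark a pair of p53 half-sites of 10 letters each, separated by at most 13 bases.
XPC: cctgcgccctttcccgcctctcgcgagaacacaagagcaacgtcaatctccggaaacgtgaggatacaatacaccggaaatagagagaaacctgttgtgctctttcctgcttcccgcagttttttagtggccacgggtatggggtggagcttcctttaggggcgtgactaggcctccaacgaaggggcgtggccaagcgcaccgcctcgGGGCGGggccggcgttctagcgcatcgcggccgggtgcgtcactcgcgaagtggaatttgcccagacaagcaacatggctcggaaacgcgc
DDB2: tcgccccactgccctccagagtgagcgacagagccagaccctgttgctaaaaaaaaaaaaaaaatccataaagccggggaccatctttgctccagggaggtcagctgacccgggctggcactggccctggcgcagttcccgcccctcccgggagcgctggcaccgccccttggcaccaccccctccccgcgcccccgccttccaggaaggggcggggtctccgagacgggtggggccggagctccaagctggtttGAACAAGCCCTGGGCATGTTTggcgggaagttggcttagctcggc
RAD23B: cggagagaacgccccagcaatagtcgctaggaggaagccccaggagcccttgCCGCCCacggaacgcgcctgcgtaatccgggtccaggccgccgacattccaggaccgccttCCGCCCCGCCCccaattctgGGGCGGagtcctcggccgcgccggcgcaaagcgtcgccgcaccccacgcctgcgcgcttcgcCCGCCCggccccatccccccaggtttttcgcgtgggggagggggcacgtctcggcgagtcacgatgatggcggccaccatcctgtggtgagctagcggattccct
GGGCGG occurred 1 time in the *XPC* window, 3 times in the *DDB2* window shown and 5 times in the *RAD23B* window shown, overlapping occurrences counted. *DDB2* and *RAD23B* have further annotated starts, whose windows held 0 GGGCGG and no p53 pair. Of 35116 windows of the same length, 45.0% held GGGCGG. The p53 pair was found in 10 of all windows (0.0285%). In *DDB2* it was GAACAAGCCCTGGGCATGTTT, at bases 47214979 to 47214999 of chromosome 11. No window of the other 6 members held such a pair. These are matches of letters and not measured binding.

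The members differed in how densely they were transcribed. Per kb of span, the mean over the 8 libraries was 5.78 CPM for *RAD23B*, 2.96 for *CETN2*, 2.69 for *DDB1*, 1.61 for *CUL4A*, 1.18 for *CUL4B*, 0.982 for *XPC* and 0.848 for *DDB2*. *RAD23B* exceeded *CETN2* in 8 of 8 libraries, but *CETN2* exceeded *DDB1* in only 5. The other neighbours in this order kept it in 6 or 7 of 8 libraries, and no 2 neighbouring ranges were apart. *DDB2* and *XPC* varied most. The highest library exceeded the lowest 4.34-fold for *DDB2* and 4.22-fold for *XPC*, 3.26-fold for *CETN2*, 2.92-fold for *DDB1* and 2.10-fold for *RAD23B*, against 1.40-fold for *CUL4A* and 1.62-fold for *CUL4B*.

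**Figure D1:**
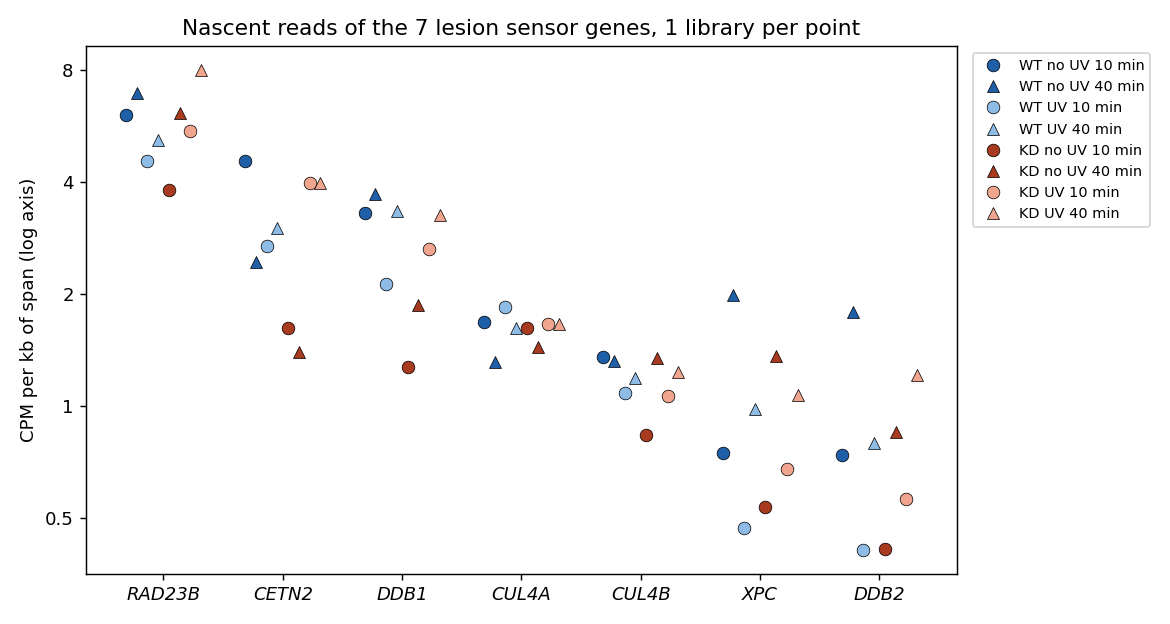
CPM per kb of span (log axis) of the 7 members, 1 point per library, with circles at 10 min and triangles at 40 min and colours for cell and UV. *XPC* and *DDB2* spread over more than 4-fold with every triangle above the circle of the same colour, while *CUL4A* stays within 1.40-fold.

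*XPC*, the damage sensor (ENST00000285021, chromosome 3, 14145147 to 14178783, minus strand, hg38), was higher at 40 than at 10 min in each of the 4 matched pairs. Unirradiated WT cells gave 25.2 CPM at 10 min and 66.9 CPM at 40 min, and unirradiated KD cells 18.1 and 46.0 CPM. After UV, WT cells gave 15.9 and 33.1 CPM, and KD cells 22.8 and 36.1 CPM. All 4 libraries at 40 min were above all 4 at 10 min. How many of the tested genes separate in this way was not counted, here or for *DDB2* below. At 10 min *XPC* lay only 3.16 to 5.93 times above the low-density level of the same library, and at 40 min 7.52 to 40.3 times. That level itself differed between libraries and was lowest in WT without UV at 40 min. The 40 over 10 min ratios were 2.65-fold in WT and 2.55-fold in KD without UV, 2.09-fold in WT and 1.58-fold in KD with UV.

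*DDB2*, the UV lesion receptor (ENST00000256996, chromosome 11, 47214942 to 47239240, plus strand), had nearly the same profile. Unirradiated WT cells stood at 18.0 and 43.5 CPM at 10 and 40 min, and unirradiated KD cells at 10.1 and 20.7 CPM. After UV, WT cells stood at 10.0 and 19.4 CPM, and KD cells at 13.7 and 29.4 CPM. Here too every library at 40 min lay above every library at 10 min, by 2.42-fold and 2.06-fold within WT and KD without UV and 1.94-fold and 2.15-fold with UV. *DDB2* lay only 2.71 to 5.87 times above the low-density level at 10 min, and 6.10 to 36.3 times at 40 min. Across the 8 libraries log2 CPM of *DDB2* and *XPC* had a Pearson r of 0.938, a description of 2 genes measured in the same libraries.

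Over all 8 libraries neither time difference was called by edgeR's quasi-likelihood test. The log2 difference was 1.11 ± 0.31 SE for *XPC* (adjusted p = 0.0779) and 1.12 ± 0.35 SE for *DDB2* (adjusted p = 0.0981), where 0.146% of genes were called and the median gene stood at -0.10. Fitted with edgeR on the 4 libraries without UV, both were called, at 1.36 for *XPC* (adjusted p = 0.00347) and 1.15 for *DDB2* (adjusted p = 0.0127). On the 4 libraries with UV they were called as well, at 0.74 (adjusted p = 0.0106) and 0.92 (adjusted p = 0.00466). Those fits leave 1 residual degree of freedom and called 31.2% and 22.7% of all genes. Of the 7 members, 2 were higher at 40 min and called in each arm, where genes called higher made up 15.4% and 12.7% of those tested. With DESeq2 on all 8 libraries both were also called (adjusted p = 0.0145 and 0.0259), beside 10.9% of genes.

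The partners of XPC and DDB2 differed less over time. *RAD23B*, which stabilises XPC (ENST00000358015, chromosome 9, 107283279 to 107332189, plus strand), was at 296 and 339 CPM in WT without UV, 223 and 254 CPM in WT with UV, 186 and 300 CPM in KD without UV, and 268 and 391 CPM in KD with UV, each pair at 10 and 40 min. *DDB1*, the adaptor (ENST00000301764, chromosome 11, 61299451 to 61333366, minus strand), was at 112 and 126 CPM in WT without UV, 72.1 and 113 CPM in WT with UV, 43.1 and 63.6 CPM in KD without UV, and 89.6 and 111 CPM in KD with UV. Both were higher at 40 min in 4 of 4 pairs, but levels at the 2 times overlapped and the fitted log2 differences, 0.40 ± 0.31 and 0.38 ± 0.33, were not called. The first 157 bp of *DDB1* overlap *TKFC* on the other strand, which held at most 9.62 CPM.

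The centrin and the cullins were the members without a shared time pattern. *CETN2* (ENST00000370277, chromosome X, 152826973 to 152830777, minus strand) is the shortest member and had 61 to 208 reads, at 17.3 and 9.28 CPM in WT without UV, 10.3 and 11.4 CPM in WT with UV, 6.16 and 5.31 CPM in KD without UV, and 15.1 and 15.2 CPM in KD with UV. *CUL4A*, the first cullin scaffold (ENST00000617546, chromosome 13, 113208836 to 113267108, plus strand), was at 98.3 and 76.9 CPM, 107.7 and 94.8 CPM, 94.3 and 84.3 CPM, and 97.2 and 97.1 CPM in the same order, and was lower at 40 min in 4 of 4 pairs, though at 0.999-fold in KD with UV (log2 -0.18 ± 0.28, not called). *CUL4B*, its paralogue (ENST00000404115, chromosome X, 120526641 to 120575794, minus strand), was at 66.8 and 65.1 CPM, 53.2 and 58.7 CPM, 41.3 and 66.1 CPM, and 52.5 and 60.7 CPM (log2 0.24 ± 0.29, not called). Over time 5 of the 7 members had a positive fitted difference, with a median of 0.38, against 45.1% of all genes. The median was -0.10 for all genes and 0.058 for genes of 20 to 70 kb. Related lists were also mostly positive, with 5 of 7 transcription-coupled repair genes and 20 of 23 CRL4 substrate receptors.

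**Figure D2:**
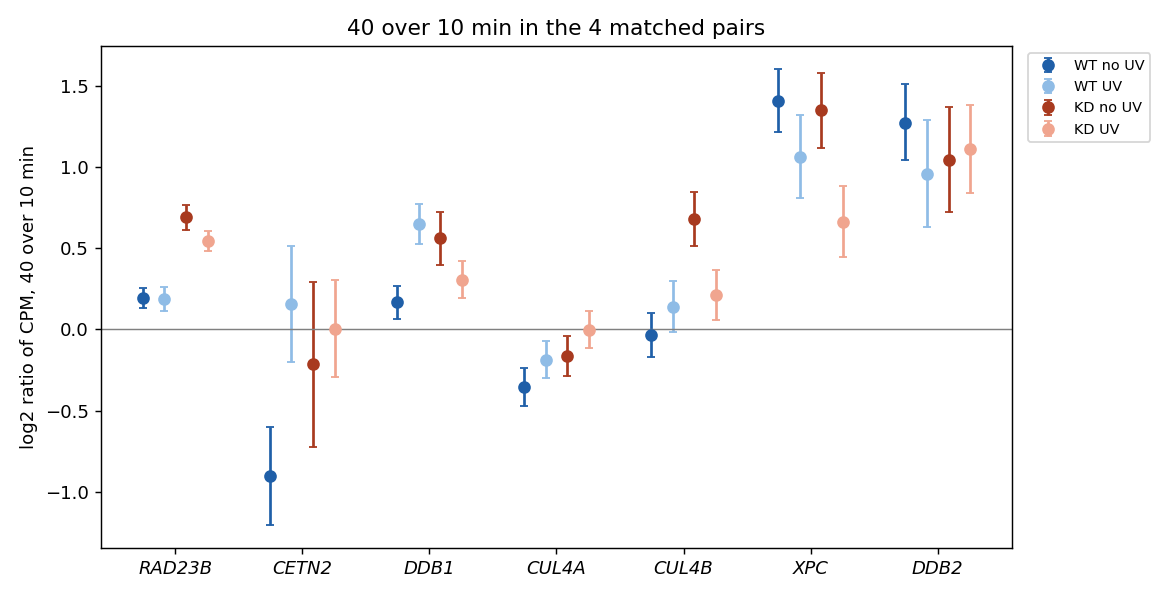
Log2 ratio of CPM at 40 over 10 min for each member in the 4 matched pairs, with exact 95% intervals that cover counting error only. *XPC* (0.66 to 1.41) and *DDB2* (0.96 to 1.27) are the only members whose 4 ratios all exceed 0.65, and all 4 of *CUL4A* are below 0.

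Irradiation was compared in the same libraries. In WT, UV libraries had less *XPC* and *DDB2* nascent RNA at both times: 0.629-fold and 0.495-fold for *XPC* at 10 and 40 min, and 0.556-fold and 0.447-fold for *DDB2*. *RAD23B* (0.753-fold and 0.749-fold), *DDB1* (0.644-fold and 0.900-fold) and *CUL4B* (0.798-fold and 0.901-fold) were also lower there. Fitted with edgeR on the 4 WT libraries, *XPC* and *DDB2* were not called (adjusted p = 0.367 and 0.313), nor was any other member, where 0.339% of genes were. In KD 7 of 7 members were higher with UV at 10 min and 5 of 7 at 40 min, against 1 and 2 of 7 in WT. *RAD23B* in KD was at 1.44-fold and 1.30-fold and *DDB2* at 1.36-fold and 1.42-fold. *XPC* (1.26-fold and 0.785-fold) and *CUL4B* (1.27-fold and 0.918-fold) were lower at 40 min. The median log2 over all genes was -0.13 and 0.31 in WT and 0.089 and -0.0042 in KD, at 10 and 40 min. The share of all genes higher in each pair is not given. *CETN2* and *DDB1* were higher with UV in KD (2.45-fold and 2.86-fold, 2.08-fold and 1.74-fold), and *CETN2* in WT was at 0.593-fold at 10 min and 1.23-fold at 40 min. *CUL4A* was higher with UV in 4 of 4 pairs, by 1.03-fold to 1.23-fold, though its fitted value in the KD libraries alone was -0.050 on the log2 scale.

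No member was called for UV over all 8 libraries, and edgeR called 0 of 17840 genes (0%), as did DESeq2, with 304 genes at an unadjusted p under 0.05. Fitted log2 differences ran from -0.42 ± 0.31 for *XPC* to 0.58 ± 0.40 for *CETN2*. In the 4 KD libraries alone *CETN2* was called higher with UV (log2 1.23, edgeR adjusted p = 0.0138), where 4.51% of genes were called higher. The UV by time term called no gene (0%) with either tool, with 486 at an unadjusted p under 0.05, and ranged over the members from -0.55 ± 0.58 for *XPC* to 0.71 ± 0.79 for *CETN2*.

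The knockdown label separated the members only when UV was taken into account. Without UV, all 7 members were lower in KD than in WT at 10 min, from 0.356-fold for *CETN2* and 0.385-fold for *DDB1* to 0.959-fold for *CUL4A*, and at 40 min 5 of 7 were lower. With UV, 5 of 7 at 10 min and 6 of 7 at 40 min were higher in KD, *DDB2* by 1.36-fold and 1.52-fold and *RAD23B* by 1.20-fold and 1.54-fold. *DDB1* was at 1.24-fold and 0.979-fold with UV. Genes at large moved too. At 10 min the log2 KD over WT of the median gene stood at -0.113 in the unirradiated pair, against 0.0983 in the irradiated pair. At 40 min these medians were 0.0206 and 0.0918. Genes of 20 to 70 kb had medians of -0.161 (unirradiated) and 0.114 (irradiated) at 10 min, then -0.0787 and 0.136 at 40 min. How many of all genes were higher in each pair is not given, so the counts do not set the members apart. No member was called for KD over all libraries, where edgeR and DESeq2 called 0 genes (0%) and 84 had an unadjusted edgeR p under 0.05.

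The KD by UV term measures how far the KD over WT difference changed with UV. It was 1.49 ± 0.43 SE on the log2 scale for *DDB2*, called by edgeR (adjusted p = 0.0476). That comparison called 8.99% of genes (5.04% higher and 3.95% lower), and 6907 of 17840 had an unadjusted edgeR p under 0.05. *CETN2* (1.65 ± 0.50, adjusted p = 0.0518) and *DDB1* (1.32 ± 0.44, adjusted p = 0.0598) lay just outside the threshold, and *RAD23B* (0.86 ± 0.46), *XPC* (0.85 ± 0.44), *CUL4B* (0.34 ± 0.44) and *CUL4A* (-0.09 ± 0.43) were not called. The member count of 1 of 7 can be set against the 8.99% of all genes called and does not set the members apart. Their median was 0.86 beside 0.12 for all genes and 0.26 for 6360 genes of 20 to 70 kb. The medians of the related gene lists named below ran from 0.53 for chromatin helpers to 1.09 for CRL4 RING and neddylation genes. The members' median does not set them apart from those lists. In the 4 libraries without UV, edgeR called *DDB1* (log2 -1.17, adjusted p = 0.0203), *CETN2* (-1.14, adjusted p = 0.0383) and *DDB2* (-0.95, adjusted p = 0.0432) lower in KD, beside 8.08% of genes, and in the 4 with UV, where 4.65% of genes were called, no member was.

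The *DDB2* call did not hold in every setting. It was lost with library totals as the scale (log2 1.31, adjusted p = 0.0553), after subtracting the low-density level (1.56, adjusted p = 0.0641), and on leaving out WT with UV at 40 min or any of the 4 KD libraries (1.32 to 1.52, adjusted p = 0.127 to 0.170), so the size stayed close to 1.49. The deposited tables also come in 2 row orders, 1 shared by WT without UV and KD with UV and the other by WT with UV and KD without UV, so a difference between these 2 sets of tables and the KD by UV term cannot be told apart. The low-density level was lowest in WT without UV at 40 min (0.0494 CPM per kb) and highest in KD without UV at 10 min (0.153 CPM per kb). Marker lists moved with the term as well, at a median log2 of 1.07 for fibroblast genes and -1.06, -1.33, -1.59 and -1.49 for epithelial, endothelial, immune and muscle genes, with 2 of 12, 1 of 8, 1 of 9, 3 of 7 and 3 of 7 called. Their summed levels over the 8 libraries ran from 1923 to 6602 CPM, 52.9 to 89.7, 201 to 1408, 29.1 to 119 and 32.2 to 141 CPM in that order, and their part in the result was not tested.

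**Figure D3:**
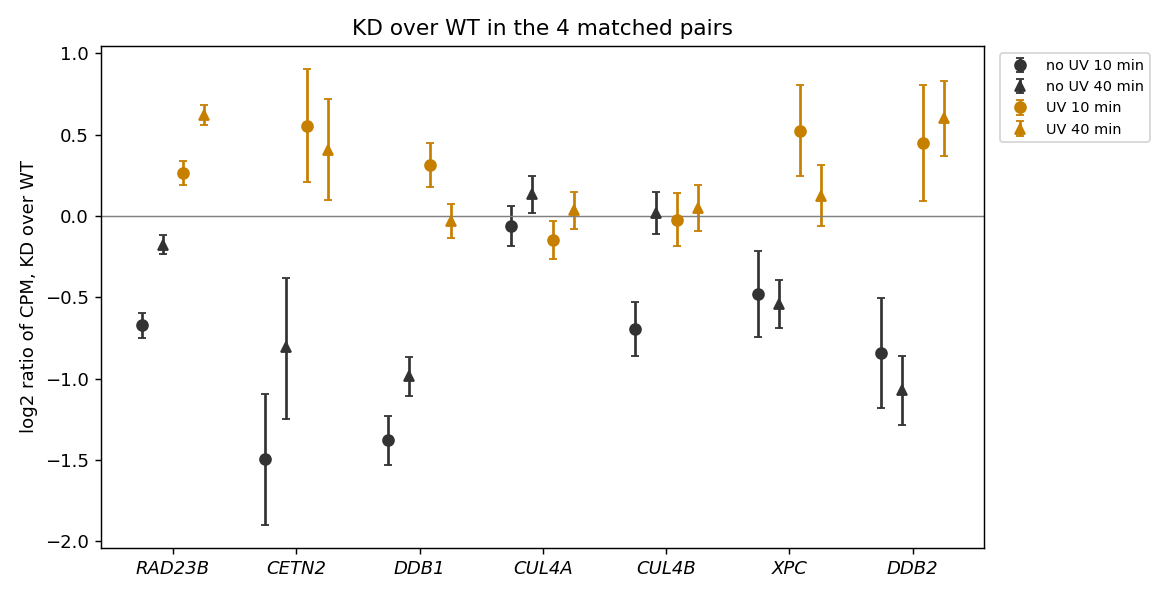
Log2 ratio of CPM in KD over WT for each member in the 4 matched pairs, without UV (black) and with UV (orange), with exact 95% intervals that cover counting error only. For *RAD23B*, *CETN2*, *XPC* and *DDB2* both black values lie below 0 and both orange values above it, and *CUL4A* stays within 0.15 of 0.

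Several members have a second transcript nested in the longest, or nearly so in *RAD23B*, which lets the reads of the ends be separated from the rest. In *XPC* the 764 bp that only the longer transcript covers (182 bp at the 5′ end and 582 bp at the 3′ end) held 11.2 and 10.2% of its reads in WT with UV at 10 and 40 min and 11.5 and 9.88% in KD with UV. Without UV the shares were 6.18 and 4.70% in WT and 6.73 and 2.46% in KD. All 4 UV libraries were thus above all 4 others, on 13 to 65 reads per library in these ends. How many other genes with nested transcripts separate in this way was not counted.

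In *DDB2* the ends (586 bp) held 14.1, 12.4, 13.7 and 11.8% of reads at 10 min in WT without and with UV and KD without and with UV, and 3.89, 10.5, 5.46 and 8.42% at 40 min. The share was lower at 40 min in each pair, and at 40 min it was higher with UV in both kinds of cells. In *RAD23B* at least 2.25% and 2.32% of reads lay in the first 774 bp at 40 min without UV (WT and KD), and at least 4.44% and 4.65% with UV. At 10 min the lower bounds were 3.18 to 3.75%. They are lower bounds because the second transcript ends slightly beyond the longest.

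In *CUL4A* the first 777 bp held 4.65 and 2.39% of reads in WT without UV, 6.58 and 6.67% in WT with UV, 8.94 and 7.12% in KD without UV, and 4.28 and 5.18% in KD with UV. The share was higher with UV in WT and lower with UV in KD at both times. For *CUL4B* a transcript of 36092 bp (120524609 to 120560700) had more reads than the longest in all 8 libraries although it starts later, and it runs 2032 bp further at the 3′ end. That stretch held at least 89 to 363 reads, or 43.8 to 179 reads per kb, against 10.4 to 27.4 per kb over the longest transcript.

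**Figure D4:**
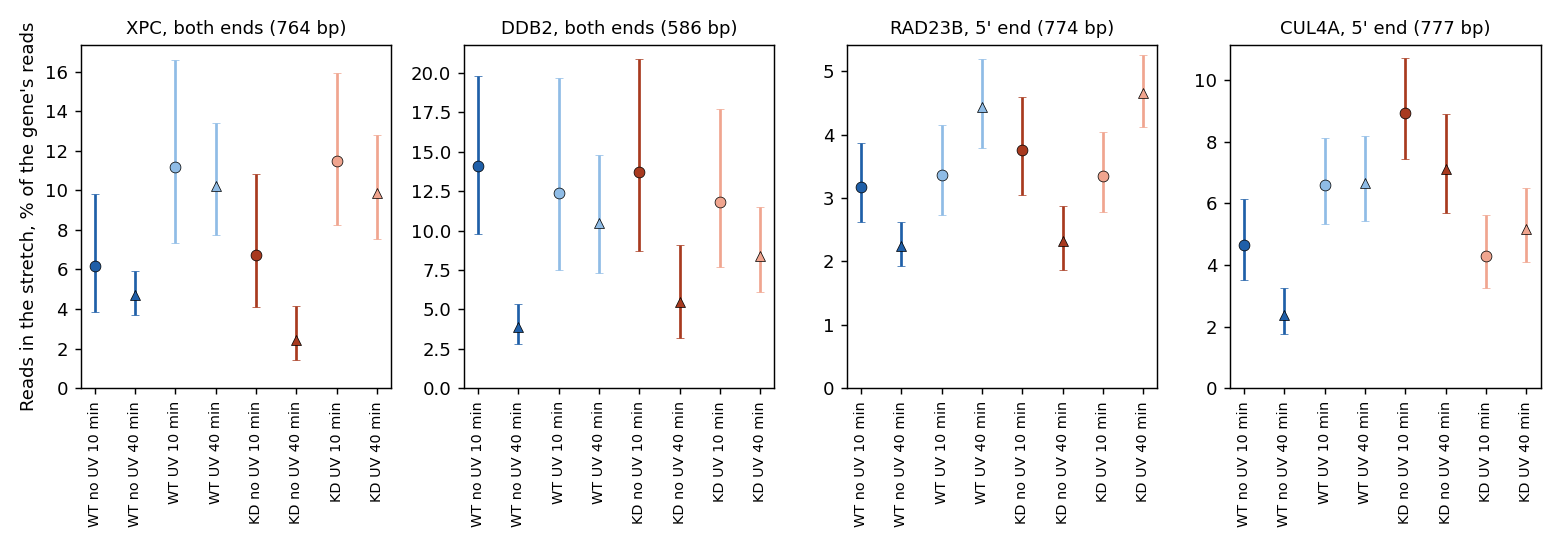
Share of each gene's reads (%) in the stretch that only its longer transcript covers, 1 point per library with 95% Wilson intervals for counting error, circles at 10 min and triangles at 40 min. The 4 UV libraries of *XPC* (9.88 to 11.5%) sit above the 4 others (2.46 to 6.73%), a separation that was not counted over other genes.

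Other genes of the pathway were counted from lists, with calls given over all genes tested. Over time edgeR called *CDK7*, the TFIIH kinase (log2 2.12 ± 0.38, adjusted p = 0.0461), of 25 genes of the repair steps after sensing, whose median was 0.52, beside 0.146% of all genes. These 26 calls fell to 0 in 4 of the 8 fits that left out 1 library and with TMM on genes of 20 to 70 kb. It called no gene of the other repair, ubiquitin, chromatin or p53 lists. Their medians over time were 0.64 for 17 genes of CRL4 RING and neddylation, 0.37 for 23 CRL4 substrate receptors, 0.36 for 12 ubiquitin and SUMO genes, 0.37 for 12 chromatin helpers, 0.66 for 7 genes of transcription-coupled repair and 0.77 for 23 p53 targets, a list that includes *DDB2* and *XPC*. None was called for UV or KD.

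For the KD by UV term, which called 8.99% of all genes (5.04% higher), the called genes of these lists were higher except for *BTG2*. Their adjusted p-values by edgeR were 0.0420 to 0.0486, and leaving out any 1 KD library left 8 to 28 calls among all genes. They included *NEDD8* (1.58), which activates cullins, with *NAE1* (1.88), *GPS1* (2.14) and *COPS7A* (1.91), among 17 genes of CRL4 RING and neddylation. Among 12 ubiquitin and SUMO genes they were *VCP* (2.21), the segregase that extracts XPC and DDB2, with *UFD1* (1.60) and *SUMO3* (1.68). Further called were *PARP1* (1.81) and *ACTR5* (1.84) among 12 chromatin helpers, and *ERCC1* (2.001), *RPA2* (1.78) and *PCNA* (1.66) among 25 later repair genes. Of 23 p53 targets, *PHLDA3* (2.90), *TP53I3* (2.26) and *DDB2* were called higher and *BTG2* (-1.65) lower. Substrate receptors (0 of 23) and transcription-coupled repair genes (0 of 7) held no called gene, which at the share of 8.99% sets neither list apart. The 3 most abundant of these were *COP1* (0.39), *DCAF1* (-0.53) and *DTL* (1.05), and *TCEA1* (0.82), *ERCC6* (1.14) and *ERCC8* (0.87).

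Among 10912 genes with a mean of at least 10 CPM, the 3 whose log2 CPM ran most like each member over the 8 libraries were named by Pearson r. They were *KAT7*, *NUP50* and *STK17A* for *XPC* (each 0.993), *FAM83D*, *DUSP11* and *MBD1* for *DDB2* (0.991 to 0.993), and *BNIP2*, *GPN1* and *SMU1* for *RAD23B* (0.988 to 0.992). They were *MTMR4*, *CACYBP* and *LDHA* for *CETN2* (0.985 to 0.993), *SLC2A1*, *BACE1* and *ABCB10* for *DDB1* (0.982 to 0.991), *DGKQ*, *C1QTNF3* and *TEX11* for *CUL4A* (0.962 to 0.971) and *TMEM106B*, *CAV1* and *GGH* for *CUL4B* (0.960 to 0.967). All points share the 8 libraries and their scaling, and the r values are a description. *XPC* and *CUL4A* ran in opposite ways (r = -0.878). *LSM3*, which starts next to *XPC* on the other strand and was chosen after its values were seen, was at 46.9 and 50.1 CPM at 10 and 40 min in unirradiated WT cells and 26.8 and 31.5 CPM in unirradiated KD cells, where *XPC* had 2.65-fold and 2.55-fold ratios. With UV *LSM3* was at 26.1 and 45.1 CPM in WT and at 39.4 and 57.4 CPM in KD, closer to the *XPC* ratios of 2.09-fold and 1.58-fold. Its time difference was 0.40 ± 0.33 (edgeR adjusted p = 0.423).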

How the data were processed

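GRO-seq measured nascent RNA in 8 libraries (single end, stranded kit). Reads were aligned to hg38 with BWA 0.5.9 and handled with SAMtools, per the submitters' processing notes, and the authors deposited raw read counts per transcript, 1 table per library, with no normalization. The counting program, strand setting and annotation were not given in the sources used here. In 32318 nested pairs of transcripts of a gene the longer never had fewer reads, so counts span introns. Of 1286 pairs nested on opposite strands, the longer had fewer reads in at least 1 library in 148. Counting without regard to strand would not give that. The longest transcript stood for each gene. Library totals ran from 10.2 to 21.1 M reads.

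Genes were tested with edgeR 4.0.16 (R 4.3.3), quasi-likelihood F-test, TMM scaling and filterByExpr (minimum count 10, minimum total 15). Additive terms for UV, KD and time left 4 residual degrees of freedom, and each interaction left 3. Benjamini-Hochberg adjusted p-values under 0.05 were called. Log2 CPM used a prior count of 2. Single pairs had exact intervals and shares had Wilson intervals, at 95%, covering counting error only. No source says whether separate cultures were used, so p-values measure the spread between libraries, which may be technical. DESeq2 1.42.0, other scalings, filters and left-out libraries were alternatives. The fits were tested on simulated data. All 7 members were named, and of each list the called genes (at most 5, otherwise the 3 largest), or the 3 most abundant where none was called. 1 list is not reported here. Members and lists were chosen with earlier results of these data known.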

Additional observations from a re-analysis of the deposited data

Results flagged for a closer look

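*DDB2* was picked out because its KD over WT difference changed with UV by a test of the difference itself (edgeR's quasi-likelihood KD by UV term, log2 1.486, adjusted p = 0.0476). *XPC*, *RAD23B* and *CETN2* were picked out because both KD over WT pairs without UV were below 0 and both pairs with UV above it. The mean of the pairs with UV minus the mean without was 0.8353 for *XPC*, 0.8674 for *RAD23B* and 1.629 for *CETN2* on the log2 scale. For these 3 the edgeR interaction term was not called (adjusted p = 0.166, 0.179 and 0.0518). Row order of the tables cannot be told apart from these differences.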

How the results depend on the processing

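Of the member values under alternatives, 504 kept their direction and side of the threshold, 27 passed it newly, 7 lost it and 64 turned in sign. None of the last was a called value. The cause of these shifts was not tested. No paired analysis was possible because the labels give no replicate numbers and each group is 1 library. The planned background from olfactory receptor genes was not run, since the tables held 1 such gene. Subtracting the low-density level, the filter over 4 libraries and the shortest transcripts were chosen after seeing the data.

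Time called 26 genes, and 352 with RLE scaling, 2 with library totals, 0 with TMM on genes of 20 to 70 kb (3911 had an unadjusted p under 0.05 with all genes), 1643 with DESeq2, 162 without a filter, 6 with background subtracted, 510 with the filter over 4 libraries, 5408 without UV alone, 3973 with UV alone, and 0 to 1765 on leaving out 1 library. Calls were 0 without WT at 10 or 40 min without UV, KD at 10 min without UV or KD at 40 min with UV. *XPC* ranged from 0.92 to 1.35 and *DDB2* from 0.86 to 1.33 there, called without WT at 40 min with UV (both), KD at 40 min without UV (*DDB2*) or KD at 10 min with UV (*XPC*). The KD by UV term called 1603, and 4788 with RLE, 2926 with totals, 3677 with TMM on 20 to 70 kb, 5116 with DESeq2, 5107 with the filter over 4 libraries, and 8 to 6091 on leaving out 1 library, with 8 to 28 without any 1 KD library. Its split of higher against lower calls was 899 to 704, 2210 to 2578 with RLE, 920 to 2006 with totals and 178 to 907 with background subtracted. UV called 59 in WT alone, 1196 in KD alone and 0 to 2 on leaving out 1 library, KD called 3620 without UV, 815 with UV and 0 to 2, and UV by time 0 to 1. TMM on 20 to 70 kb moved the median gene over time from -0.10 to -0.30, and library totals moved it to -0.24.

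Values that turned in sign were as follows. For *RAD23B*, UV was -0.059 with RLE and DESeq2, -0.023 with the filter over 4 libraries and -0.52 in WT alone. KD for *RAD23B* was -0.058 with RLE and DESeq2, -0.0060 with TMM on 20 to 70 kb, -0.014 with background subtracted, -0.050 with totals, -0.075 with the filter over 4 libraries and -0.41 without UV. UV was -0.33 for *CETN2* and -0.50 for *DDB1* in WT alone, 0.30 for *DDB2* and -0.050 for *CUL4A* in KD alone, and 0.058 for *CUL4B* with the shortest transcript. KD with UV alone was 0.22 for *XPC*, 0.39 for *CETN2*, 0.047 for *DDB1* and 0.44 for *DDB2*, and without UV 0.048 for *CUL4A*. UV by time was -0.086 for *DDB1* and -0.0042 for *CUL4A* with RLE and DESeq2, -0.11 for *DDB1* with the filter over 4 libraries, 0.096 for *RAD23B* and 0.0053 for *CUL4B* with totals, and 0.0044 for *CUL4B* with the shortest transcript.

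On leaving out 1 library, UV ran from -0.21 to 0.048 for *CUL4B* and -0.16 to 0.18 for *RAD23B*. KD ran from -0.71 to 0.032 for *CETN2*, -0.066 to 0.044 for *CUL4A*, -0.31 to 0.092 for *XPC*, -0.48 to 0.0013 for *DDB2* and -0.16 to 0.20 for *RAD23B*. Time ran from -0.58 to 0.15 for *CETN2* and KD by UV from -0.23 to 0.026 for *CUL4A*. UV by time ran from -0.22 to 1.37 for *CETN2*, -0.58 to 0.75 for *DDB1*, -0.53 to 0.37 for *RAD23B*, -1.01 to 0.53 for *DDB2*, -0.50 to 0.21 for *CUL4B* and -0.099 to 0.19 for *CUL4A*.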
